A study of Mus musculus with 6 samples.

Results

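The genes described here are 9 transcription factor genes of blood stem cells and red cell precursors, namely Gata2, Tal1, Runx1, Meis1, Myb, Gfi1b, Klf1, Zfpm1 and Bcl11a. Their members are the peaks of methylated DNA that fall in 1 fixed window per gene on the mouse build mm9, and together the windows span 0.83 Mb. The windows held 57 of 85797 peaks in stem cells (HSC), 34 of 50638 in common myeloid progenitors (CMP) and 25 of 27839 in erythroblasts (ERY). Peaks that overlap or touch were merged across the 3 lists, which gave 60 regions in the windows of 87514 in all. Methylated DNA was pulled down with MBD2, a protein that binds methylated CpG sites, and sequenced in 1 library per cell type. All cells came from female C57BL/6 mice, with no treatment and no genetic change named in the labels. HSC were adult bone marrow cells sorted as lineage-negative, Sca-1+ and c-kit+, and CMP as lineage-negative, Sca-1- and c-kit+. For the erythroblasts no sort or culture is named (not given in the sources used here). Lists of peaks give positions only, with no height or read count, and the depth of each library is unknown. Absence from a list means that no peak was called there, which does not show that the DNA was unmethylated. The sorted populations could not be checked against marker genes, since no expression was measured.

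These factors form a network that keeps stem cells undifferentiated and then directs a part of their progeny into the red cell lineage. Gata2, Tal1, Runx1 and Meis1 act in stem cells, and Gata2 gives way to its relative Gata1 as red cells mature. Klf1, Gfi1b and the Gata1 partner Zfpm1 act later, in erythroid cells, and Bcl11a silences globin genes of earlier development. Methylated CpG sites near a promoter or enhancer often accompany silence, while methylation within a transcribed gene body is common in active genes. A called peak alone therefore does not tell the state of a gene.

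MBD2 binds methylated CpG, and the 9 genes differ widely in how many CpG lie before their start sites. These are counts in reference sequence and do not give methylation. RefSeq sequences on GRCm38.p6 were at hand for 12 promoters of all 9 genes. They are shown for the window without a peak (Tal1), for the CpG-richest start site (Myb) and for a pair of erythroid genes with few CpG (Gfi1b and Klf1). Each run is the 250 bases before the start site, 5′ to 3′ on the gene's strand, with CpG in capitals.
Tal1 first start: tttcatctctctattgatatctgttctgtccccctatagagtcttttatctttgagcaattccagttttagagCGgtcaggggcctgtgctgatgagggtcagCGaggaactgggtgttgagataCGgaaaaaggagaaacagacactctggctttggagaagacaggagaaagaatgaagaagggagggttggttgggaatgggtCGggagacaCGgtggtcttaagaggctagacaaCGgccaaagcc
Tal1 second start: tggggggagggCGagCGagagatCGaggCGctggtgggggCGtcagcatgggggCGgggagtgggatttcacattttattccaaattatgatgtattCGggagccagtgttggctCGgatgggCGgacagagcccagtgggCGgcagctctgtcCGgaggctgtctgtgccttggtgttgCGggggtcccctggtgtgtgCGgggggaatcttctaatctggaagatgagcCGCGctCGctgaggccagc
Myb: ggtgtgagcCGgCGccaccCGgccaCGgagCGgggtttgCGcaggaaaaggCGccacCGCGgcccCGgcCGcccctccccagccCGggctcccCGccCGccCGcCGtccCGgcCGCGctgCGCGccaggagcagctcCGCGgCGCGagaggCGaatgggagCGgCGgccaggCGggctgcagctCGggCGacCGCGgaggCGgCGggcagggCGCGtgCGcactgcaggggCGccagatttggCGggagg
Gfi1b: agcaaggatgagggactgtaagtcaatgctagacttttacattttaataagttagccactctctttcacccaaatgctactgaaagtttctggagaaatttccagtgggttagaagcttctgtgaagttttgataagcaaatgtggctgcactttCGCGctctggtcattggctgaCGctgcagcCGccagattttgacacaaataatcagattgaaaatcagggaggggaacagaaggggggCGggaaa
Klf1: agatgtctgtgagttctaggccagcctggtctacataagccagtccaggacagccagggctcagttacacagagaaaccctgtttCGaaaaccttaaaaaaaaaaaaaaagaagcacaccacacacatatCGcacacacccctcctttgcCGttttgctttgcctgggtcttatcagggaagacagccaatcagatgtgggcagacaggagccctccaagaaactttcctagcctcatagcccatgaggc
Myb had 40 CpG in these 250 bases, as many as or more than 98.9% of the 32851 promoters of the table. Klf1 had 3 and Gfi1b 5, against a median of 6 over all promoters (interquartile range 2 to 16). The first Tal1 start had 6 and the second 16. Of the promoters not shown, Gata2 had 22 and 24, Zfpm1 28, Bcl11a 16 and Meis1 13. Runx1, which has a distal and a proximal promoter, had 2 CpG before one start and 27 before the other. The sequence TGATAA, a form of the site that GATA factors bind, was searched on both strands and found in Gfi1b (115 to 120 bases before the start) and in Klf1 (75 to 80 bases before it). It occurred in 7.94% of all promoters. AGATAA was found in the first Tal1 promoter and in 9.99% of all promoters. The motifs differ in their first base, so no stretch matches both on the same strand. These sequences carry GRCm38 positions, so they were not placed against the mm9 peaks. Whether a given peak lies in a promoter, exon or intron was not analysed here.

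Fewer peaks were called in CMP than in HSC and fewest in ERY in these windows, the same order as in the whole lists. CMP had 59.6% as many peaks as HSC in the windows and 59.0% over the genome. ERY had 43.9% as many as HSC in the windows and 32.4% over the genome. HSC peaks covered 51514 bp of the windows, CMP peaks 33015 bp and ERY peaks 23874 bp. The windows were denser in peaks than the genome in all 3 lists, with 68.7 peaks per Mb against 33.3 in HSC, 41.0 against 19.6 in CMP and 30.1 against 10.8 in ERY. The genome values count the span from the first to the last peak of each chromosome. Runx1 and Zfpm1 alone held 39 of the 57 HSC peaks (68.4%), 24 of 34 in CMP and 17 of 25 in ERY. In the other 7 windows, 0.51 Mb in all, the density was 35.3 peaks per Mb in HSC, 19.6 in CMP and 15.7 in ERY, close to the genome in HSC and CMP. Without Runx1 the windows held 30, 18 and 14 peaks. Each cell type is a single library, so the differences between cell types could not be set against any spread between replicates and none was tested.

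**Figure D1:**
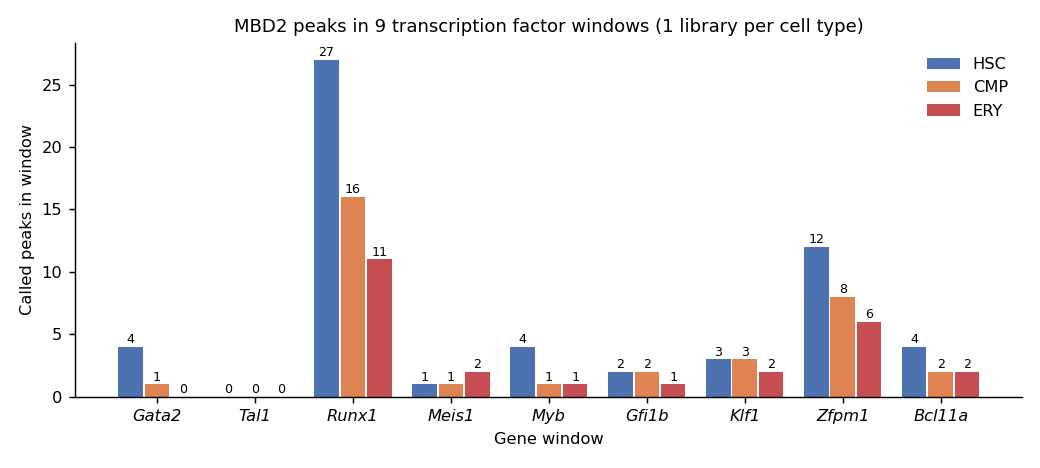
Bars give the number of called MBD2 peaks (y axis) in each gene window (x axis) for HSC, CMP and ERY, 1 library each. Runx1 has 27, 16 and 11 peaks and Zfpm1 has 12, 8 and 6, while Tal1 has none in any list.

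An HSC peak is called absent from a later list when no peak there overlaps it by at least 1 bp. From HSC to CMP, 24 of 57 peaks were absent (42.1%, exact binomial 95% interval 29.1 to 55.9%), against 42.9% of all HSC peaks. From CMP to ERY, 11 of 34 were absent (32.4%, 17.4 to 50.5%), against 49.3% of all CMP peaks. Between the end points, HSC and ERY, 34 of 57 were absent (59.6%, 45.8 to 72.4%), against 69.1% of all HSC peaks. The intervals cover counting error only and take each peak as independent of its neighbours. Each of the 3 held the share of the whole list, so no departure from it was detectable with this number of peaks. HSC peaks overlapped by an ERY peak were the wider ones, with a median of 931 bp against 775 bp for the rest. Over the whole list the medians were 864 and 706 bp, so the order is that of the genome. CMP peaks with and without an ERY peak had medians of 880 and 898 bp in the windows, against 889 and 751 bp over the whole list.

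The factors of stem cells and those of erythroid cells were also counted apart. Of the 36 HSC peaks at Gata2, Runx1, Meis1 and Myb, 18 were absent from CMP (50%, 32.9 to 67.1%) and 24 from ERY (66.7%, 49.0 to 81.4%). Of the 17 at Gfi1b, Klf1 and Zfpm1, 4 were absent from CMP (23.5%, 6.81 to 49.9%) and 8 from ERY (47.1%, 23.0 to 72.2%). From CMP to ERY the groups were close, with 7 of 19 absent (36.8%, 16.3 to 61.6%) and 4 of 13 absent (30.8%, 9.09 to 61.4%). All 6 intervals hold the whole-list shares of 42.9%, 69.1% and 49.3% for these pairs, and the difference between the groups was not tested. Tal1 adds no peak to the first group, and the 4 peaks of Bcl11a stand in neither. Runx1 supplies 27 of the 36 peaks there, and Zfpm1 12 of the 17 in the second.

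**Figure D2:**
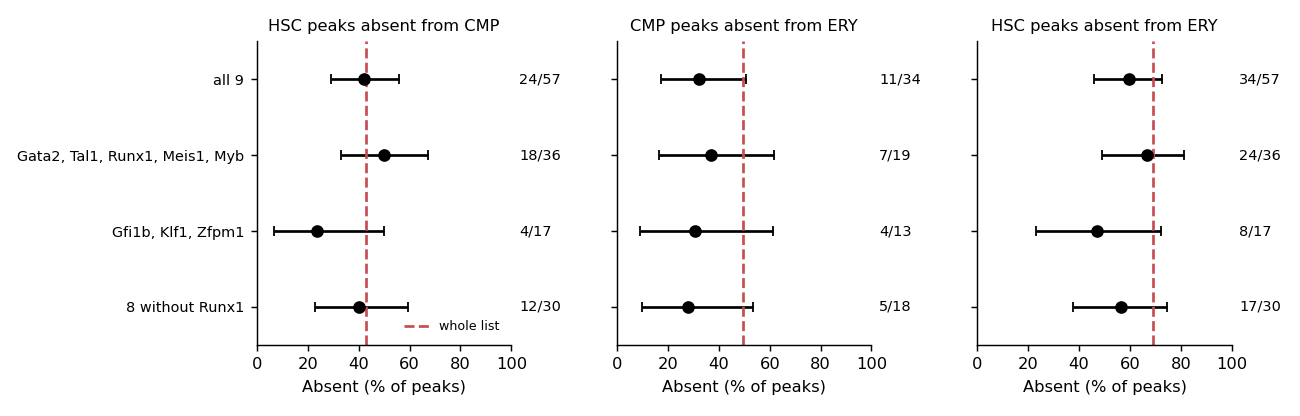
Points give the percentage of peaks of the earlier list that no peak of the later list overlaps (x axis) for sets of genes (y axis), with exact binomial 95% intervals and the counts at the right. Dashed lines mark the whole lists at 42.9%, 49.3% and 69.1%, and each interval for all 9 genes holds its line.

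Of the 60 merged regions, 24 had a peak in HSC alone (40.0%), against 40.7% of all regions. Another 10 had a peak in HSC and CMP (16.7%, interval 8.29 to 28.5%), against 26.4%. A peak in all 3 cell types was found in 23 (38.3%, 26.1 to 51.8%), against 28.5%. Each interval holds the whole-series share. Regions without an HSC peak were 3 in number, 1 in CMP alone (against 1.72% of all regions) and 2 in ERY alone (against 1.16%). No region had a peak in HSC and ERY but not CMP, a class that holds 1.2% of all regions, or in CMP and ERY but not HSC, which holds 0.323%. Counted by step, regions gained (no peak in the earlier list and one in the later) were 1 from HSC to CMP, 2 from CMP to ERY and 2 from HSC to ERY. Over the genome the gained regions were 2.04%, 2.36% and 1.48% of all regions, against 1.67%, 3.33% and 3.33% here. With counts this small, no departure was detectable.

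Gata2, a zinc finger factor needed for stem cell maintenance, had fewer peaks at each later stage and none in ERY. HSC had 4 peaks in the 40 kb window (chr6, 88.13 to 88.17 Mb), CMP had 1 and ERY 0. The widest HSC peak, at chr6:88139897-88141417 (1521 bp), was also the widest absent from ERY and the only one with a CMP peak, at chr6:88139998-88141221 (1224 bp). The other HSC peaks, of 1001, 639 and 609 bp, had neither a CMP nor an ERY peak. Gata2 was the only gene of the 9 with an HSC peak but no ERY peak in its window. An ERY peak was nevertheless called near by, starting 2.26 kb beyond the window's right edge at 88172260, and another ended 15.0 kb before its left edge. The fall was not confined to the window. The flank of the same length to the right held 5 HSC peaks, 1 CMP peak and 1 ERY peak, and that to the left 1 in each list. With 4 HSC peaks in the window, the interval for the share absent from ERY runs from 39.8 to 100%, which holds the 69.1% of the whole list.

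Tal1, a basic helix-loop-helix factor needed for blood stem cells to form and again for red cells to mature, had no peak in any of the 3 lists. Its 70 kb window (chr4, 114.72 to 114.79 Mb) lies inside a far longer stretch without a peak. In HSC that stretch runs from 114602183 to 114867300, or 265 kb, and in CMP it is nearly identical at 265 kb. In ERY it runs from 114440199 to 114872956, or 433 kb. Gaps at least this long made up 1.03% of the gaps between neighbouring HSC peaks, 3.04% of those in CMP and 4.15% of those in ERY. The median gaps were 10.7, 19.1 and 32.6 kb. These shares count gaps and not bases. Long gaps take up a larger part of the genome than of the gap count, and that part was not computed. The stretch without a peak reaches beyond the window on both sides, 118 kb to the left of the window and 77.3 kb to the right in HSC. In the GRCm38 gene table the neighbouring coding genes are Stil and Pdzk1ip1.

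Runx1, the DNA-binding part of core binding factor and needed for stem cells to arise, carried the most peaks of the 9 genes in every list. Its 250 kb window (chr16, 92.59 to 92.84 Mb) held 27 HSC peaks, 16 CMP peaks and 11 ERY peaks. These covered 23746, 14659 and 9023 bp, or 9.50%, 5.86% and 3.61% of the window. The HSC density of 108 per Mb compares with 29.9 per Mb on chromosome 16, and the flank of the same length to the left held still more HSC peaks, 34, while that to the right held 13. Of the HSC peaks, 12 of 27 were absent from CMP (44.4%, interval 25.5 to 64.7%) and 17 from ERY (63.0%, 42.4 to 80.6%), both close to the whole list.

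The Runx1 peaks were unevenly placed along the window. By the peaks' midpoints, the first 50 kb held 8 HSC, 6 CMP and 5 ERY peaks, and the next 50 kb 9, 6 and 5. From 100 to 150 kb there were 5, 2 and 0, from 150 to 200 kb 3, 1 and 1, and from 200 to 250 kb 2, 1 and 0. Thus 10 of the 11 ERY peaks lay in the first 100 kb. The widest HSC peak of the window, at chr16:92694687-92696516 (1830 bp), overlapped a CMP peak of 1866 bp and no ERY peak. It was also the widest Runx1 peak absent from ERY. The next widest, at chr16:92687917-92689608 (1692 bp), had a CMP peak of 831 bp and an ERY peak of 962 bp, both over its right part.

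Runx1 held 10 regions that all 3 cell types shared. The first, at chr16:92605432-92606841, was nearly the same in each, with 1365 bp in HSC, 1338 bp in CMP and 1303 in ERY. The following 3 lay at chr16:92613412-92614272, chr16:92614851-92616145 and chr16:92623770-92624744. Then came chr16:92643928-92644994, where the width was 1067, 786 and 639 bp in HSC, CMP and ERY, and chr16:92645692-92646682, with 836, 977 and 775 bp. The last 4 were chr16:92678668-92679619, chr16:92684308-92685327, chr16:92687917-92689703 and chr16:92754923-92755853. In that last region the peak spanned 931 bp in HSC, 716 in CMP and 604 in ERY.

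A pair of Runx1 regions had no HSC peak. One was an ERY peak at chr16:92622202-92623056 (855 bp), 713 bp from the next HSC peak and 728 bp from the next CMP peak. The other was a CMP peak at chr16:92655970-92656822 (853 bp), 2406 bp from the nearest HSC peak and 9455 bp from the nearest ERY peak. Both are close in width to the other peaks of their lists, whose medians were 788 bp in ERY and 818 bp in CMP.

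**Figure D3:**
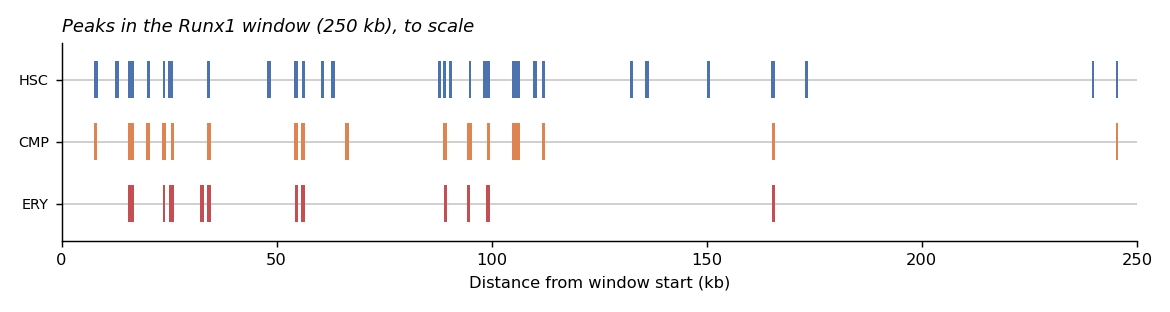
Boxes give the called peaks of HSC, CMP and ERY (rows) along the 250 kb Runx1 window, with the distance from the window start in kb on the x axis, to scale. The first 100 kb holds 10 of the 11 ERY peaks, and the HSC and CMP peaks extend further along the window.

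Meis1, a homeobox factor that partners with Hox proteins in stem cells, had few peaks for the length of its window and was the only gene with more peaks in ERY than in HSC. The 160 kb window (chr11, 18.77 to 18.93 Mb) held 1 HSC, 1 CMP and 2 ERY peaks. The HSC density of 6.25 per Mb compares with 43.4 per Mb on chromosome 11. The region shared by all 3 cell types lies at chr11:18834974-18835976, with 782 bp in HSC, 696 in CMP and 891 in ERY. Its HSC peak, at chr11:18835195-18835976, was the widest of the window by being the single one. The second ERY peak, at chr11:18907339-18908508 (1170 bp), had no counterpart. The nearest HSC peak was 26.5 kb away and the nearest CMP peak 26.4 kb. It is the wider of the 2 ERY peaks in the windows that lie outside the HSC list, and no depth is at hand to judge its strength.

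Myb, which sustains the proliferation of progenitors and is turned down late in red cell maturation, had 4 peaks in HSC, of which 3 were absent from CMP and the same 3 from ERY. The 60 kb window (chr10, 20.83 to 20.89 Mb) held 1 peak each in CMP and ERY. The share absent, 75% at both stages, has an interval of 19.4 to 99.4%, which holds the 42.9% and 69.1% of the whole list. The region kept throughout, at chr10:20845529-20846431, was the narrowest Myb peak in HSC at 467 bp, and was 891 bp in CMP and 829 bp in ERY. Over the whole HSC list the kept peaks were instead the wider ones by their median. The widest HSC peak, at chr10:20864464-20865356 (893 bp), was absent from CMP and ERY, and so were those of 698 and 754 bp. In CMP and ERY no peak follows the kept one for 76.1 and 76.0 kb.

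Gfi1b, a repressor that acts in erythroid cells and megakaryocytes, kept both its HSC peaks in CMP and 1 of them in ERY. The 40 kb window (chr2, 28.45 to 28.49 Mb) held 2, 2 and 1 peaks. The shares kept were 100% (interval 15.8 to 100%) in CMP and 50% (1.26 to 98.7%) in ERY. Both intervals hold the 57.1% and 30.9% of the whole list. The region kept in all 3, at chr2:28468887-28469783, was 897 bp wide in HSC, 572 bp in CMP and 816 in ERY. The wider HSC peak, at chr2:28466484-28467626 (1143 bp), had a CMP peak of 920 bp and no ERY peak.

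Klf1, the activator of the adult beta-globin gene, had the second highest HSC density of the 9 genes after Zfpm1, on 3 peaks. The flank of the window's length to the right held 6 HSC peaks, including the peak that crosses the window edge, and that to the left 0. The 20 kb window (chr8, 87.42 to 87.44 Mb) held 3 HSC, 3 CMP and 2 ERY peaks, and these covered 14.7%, 12.4% and 7.61% of it. All 3 HSC peaks had a CMP peak (100%, interval 29.2 to 100%) and 2 had an ERY peak (66.7%, 9.43 to 99.2%), intervals that hold the 57.1% and 30.9% of the whole list. The first region, at chr8:87428148-87429252, was 1105 bp wide in HSC, 880 bp in CMP and 766 in ERY. The middle one, an HSC peak at chr8:87435927-87436953 (1027 bp), had a CMP peak of 1182 bp and no ERY peak. The third, at chr8:87439191-87440703, held the widest HSC peak of the window (1513 bp), with 1015 bp in CMP and 1136 bp in ERY. It crosses the right edge of the window in all 3 lists. With windows this short, the neighbouring coding genes Gcdh and Dnase2a in the GRCm38 table may hold some of these peaks, and no mm9 annotation was used to decide it.

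Zfpm1, which encodes the GATA1 partner also called FOG1, had the densest HSC peaks of the 9 genes. The 70 kb window (chr8, 124.80 to 124.87 Mb) held 12 HSC, 8 CMP and 6 ERY peaks. They covered 11088, 8501 and 6283 bp, or 15.8%, 12.1% and 8.98% of the window. The HSC density of 171 per Mb compares with 40.6 per Mb on chromosome 8, but the flanks of the same length held nearly as many HSC peaks, 9 to the left and 10 to the right. The HSC density is thus shared with the surrounding region. In the later lists the window held more than either flank, with 8 CMP peaks against 4 and 4. The ERY counts were 6 against 2 to the left and 4 to the right. Of the 12 HSC peaks, 4 were absent from CMP (33.3%, interval 9.93 to 65.1%) and 6 from ERY (50%, 21.1 to 78.9%). These intervals hold the 42.9% and 69.1% of the whole list. All 6 ERY peaks overlapped both an HSC and a CMP peak. Over the whole list, 95.3% of ERY peaks overlapped an HSC peak and 92.5% a CMP peak.

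The 6 Zfpm1 regions shared by all 3 cell types were spread over the window. They lay at chr8:124818418-124819289, chr8:124825997-124826925, chr8:124839448-124840527, chr8:124853191-124854246, chr8:124857896-124859210 and chr8:124859284-124861628. The last of these held the widest HSC peak of the 9 windows, at chr8:124859425-124861628 (2204 bp), which differed little from the CMP peak of 2266 bp and the ERY peak of 2165 bp. Together the 3 peaks shared 2024 bp. The second region differed more and in the other direction, at 507 bp in HSC, 806 bp in CMP and 929 in ERY. The widest HSC peak absent from ERY, at chr8:124830306-124831216 (911 bp), had a CMP peak of 823 bp.

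Bcl11a, a zinc finger repressor of embryonic and fetal globin genes, held a region that was wider in ERY than in HSC. The 120 kb window (chr11, 23.97 to 24.09 Mb) had 4 HSC, 2 CMP and 2 ERY peaks. At chr11:24062844-24065275 the peak spanned 1959 bp in HSC, 2216 bp in CMP and 2432 in ERY. The ERY peak was the widest peak of any list in the 9 windows, and it contained the HSC peak at chr11:24063217-24065175 in full. The second region with all 3 peaks, at chr11:24072322-24073383, was 984, 847 and 908 bp wide. The other HSC peaks, at chr11:24069193-24069989 (797 bp, the widest absent from ERY) and of 594 bp, had no peak in CMP or ERY. Both losses thus fell between HSC and CMP. The share absent, 50% at both stages, has an interval of 6.76 to 93.2%, which holds the 42.9% and 69.1% of the whole list.

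**Figure D4:**
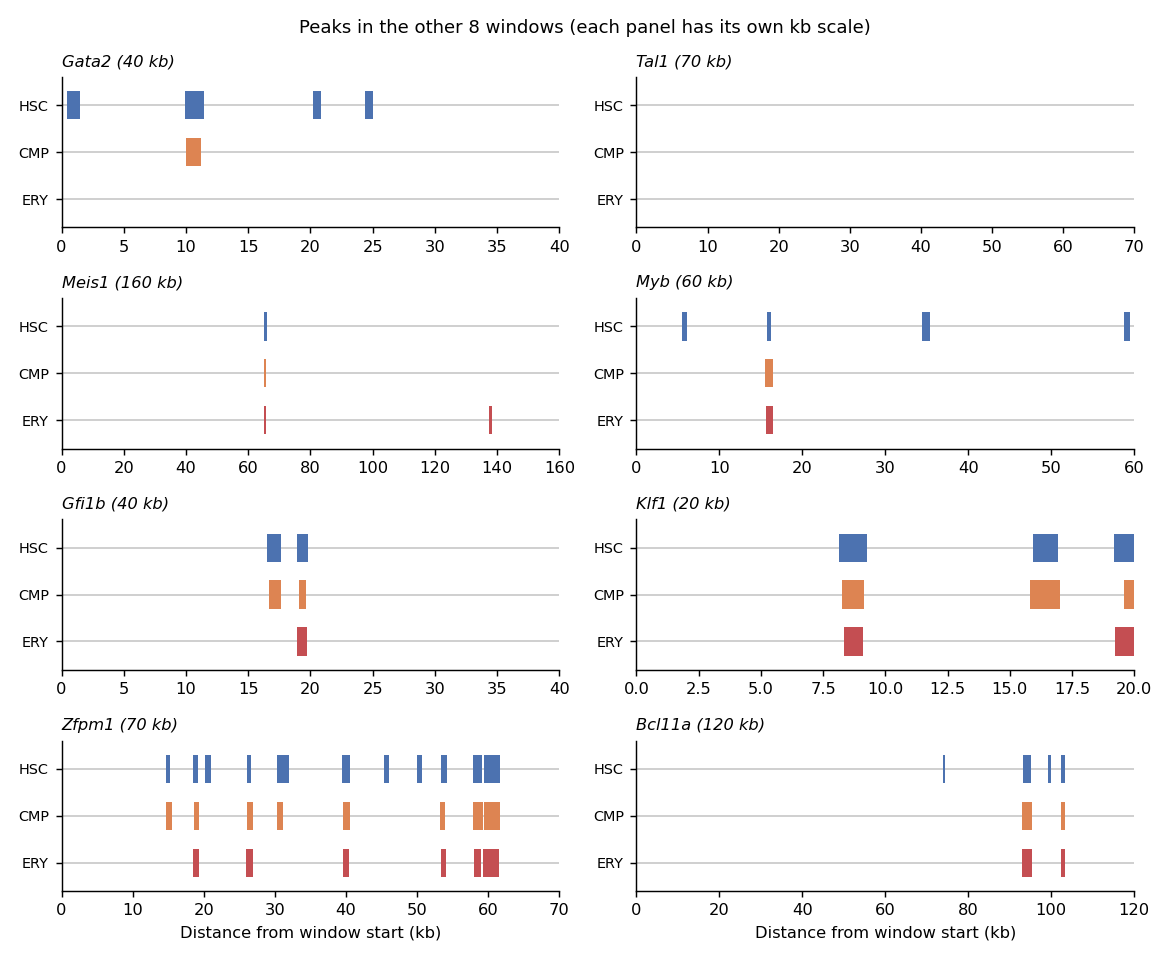
Boxes give the called peaks of HSC, CMP and ERY (rows) in the other 8 windows, with the distance from each window's start in kb on the x axis and a scale of its own per panel. Gata2 goes from 4 peaks to 1 and 0, Tal1 is empty, Meis1 has a second ERY peak, and the last Klf1 peak is drawn as far as the window edge.

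The regions shared by all 3 cell types are overlapping peaks by construction, so their closeness in position is no result, and their edges and widths are given as a description. Each of the 23 such regions had exactly 1 peak per list, and the 3 peaks shared a median of 604 bp. The ERY start lay a median of 133 bp from the HSC start in either direction, and the ERY end 120 bp from the HSC end. The largest shift of a start was 825 bp, in the Runx1 region at chr16:92687917-92689703. Over the 23 regions the median HSC peak was 931 bp wide, the median CMP peak 880 bp and the median ERY peak 829 bp. Over the whole lists, HSC peaks with an ERY peak had a median of 864 bp. ERY peaks with an HSC peak had one of 793 bp, so the order of HSC and ERY is that of the genome. CMP does not keep its middle place there, since CMP peaks with an ERY peak had a median of 889 bp. The ERY peak was narrower than the HSC peak in 15 of the 23 regions (65.2%), and the CMP peak was narrower in 13. The ERY peak was wider in the remaining 8, among them the kept Myb region, 1 Meis1, 3 Runx1, 2 Zfpm1 and 1 Bcl11a region. No single direction of change held for the kept regions of these genes. Narrower and wider regions were not counted over the genome.

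**Figure D5:**
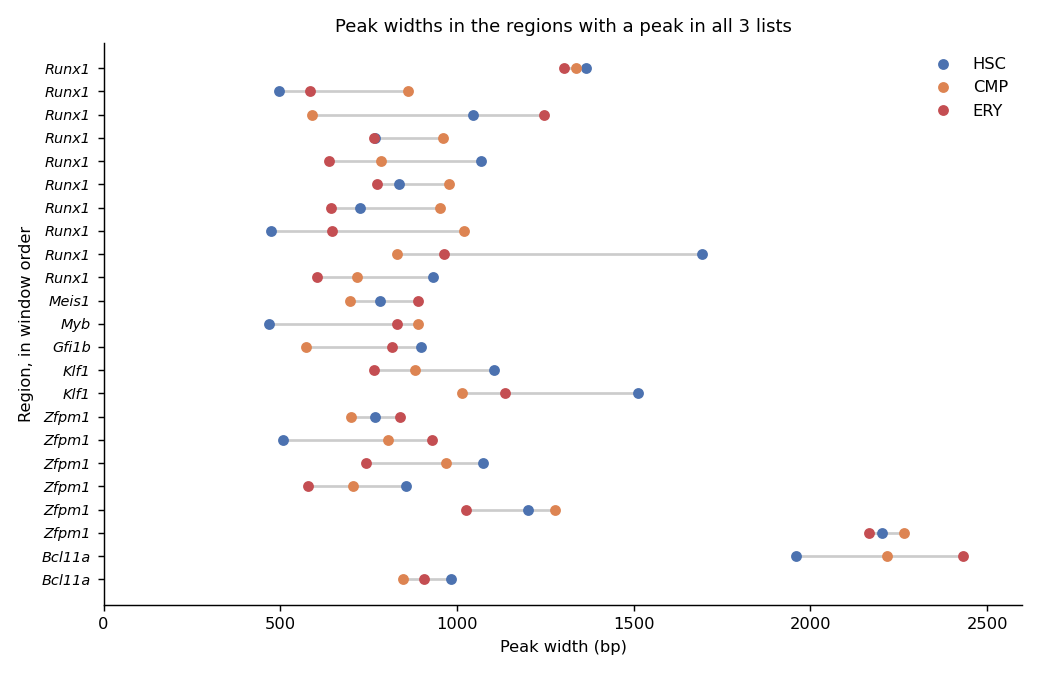
Points give the width in bp (x axis) of the HSC, CMP and ERY peak in each of the 23 regions with a peak in all 3 lists (y axis, by gene and position). The medians are 931, 880 and 829 bp, and the order of the 3 points changes from region to region.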

How the data were processed

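DNA methylation was measured by MBD2 pulldown and sequencing in 3 cell types, with 1 enriched library each. Per the labels' protocols the reads were 36 bp single-end reads from an Illumina Genome Analyzer. Positions are on mm9 (per the submitters' processing notes). For each enriched library the authors deposited a list of peaks, exported by a genome browser table query per the file headers, with chromosome, start and end in bp and no score. Aligner, peak caller, threshold and control were not given in the sources used here. Libraries made from the supernatant, 3 in number, were not analysed here. Depth is unknown, so no interval or floor based on reads is given.

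The gene windows were given in Mb on mm9. The members, windows and groups of genes were chosen with earlier results of these data known. A peak counted for a window when at least 1 bp lay in it, and covered lengths were cut at its edges. Regions are peaks of the 3 lists merged where they overlap or touch. Printed coordinates are 1-based. The peaks printed with coordinates were every region with a peak in all 3 lists, every region without an HSC peak, and in each window the widest HSC peak and the widest HSC peak absent from ERY. The planned summary of other pathway genes needs an mm9 annotation and was not run. Promoter sequences and gene neighbours came from RefSeq tables on GRCm38.p6, matched by symbol for 9 of 9 genes. Each cell type has 1 library, so values are described without a test. For shares, 95% intervals are exact binomial ones (Clopper-Pearson). Python 3.11.15, numpy 2.4.6, pandas 2.3.3, scipy 1.17.1 and matplotlib 3.10.9 were used. The overlap code was tested on simulated data and checked against bedtools 2.31.1.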

Additional observations from a re-analysis of the deposited data

How the results depend on the processing

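The alternatives were other rules for the window edge, windows widened by 10 kb, the wider 50% of each list, other overlap rules, merging across 500 bp and leaving out each gene. Of 308 values, 277 stayed within 1.5 times (counts and lengths) or inside their interval (shares). Some of these could not move. Leaving out Tal1, which has no peak, changes no value, and leaving out any gene keeps an empty class empty. Shares without 1 gene also come from part of the peaks behind the interval. The count of 277 is therefore no measure of how stable the results are. Without the Runx1 window the counts and lengths fall because 1 gene supplies much of the set. Peaks were then 30 in HSC, 18 in CMP and 14 in ERY, and covered lengths 27768, 18356 and 14851 bp. Lost regions were 12 from HSC to CMP, 5 from CMP to ERY and 17 over the whole course. With all 9 genes they were 24, 11 and 34. Gained regions without Runx1 were 0, 1 and 1. By class, 12 regions were then in HSC alone, 5 in HSC and CMP, 13 in all 3, 0 in CMP alone and 1 in ERY alone. The shares kept without Runx1 stayed inside their intervals, at 60.0%, 72.2% and 43.3% for the same steps. Without the Meis1 window, gained regions were 1 for CMP to ERY and 1 for HSC to ERY, and regions in ERY alone 1. With the wider 50% of each list, ERY peaks were 15, and the shares kept fell to 40.0%, 34.8% and 27.5%. Gained regions were then 7, 7 and 4, and regions in all 3, in HSC and ERY, in CMP alone and in CMP and ERY were 7, 4, 6 and 1. These follow in part by construction, since a peak below the width limit no longer counts. Shares kept and gained regions over the genome were not counted under this limit. No paired analysis was possible because each cell type has 1 library. Read depth is unknown, and its part in whether a peak was called was not tested.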

Other observations

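The stretches of equal length on either side of the windows, counted in the same way, differed between genes. To the left of the Runx1 window the flank held 22 CMP and 11 ERY peaks, and to the right 3 and 0. At Zfpm1 the left flank held 4 CMP and 2 ERY peaks and the right flank 4 of each. In ERY no peak followed the last Runx1 peak for 370 kb, against 180 kb without a peak after the last CMP one. Tal1 had no peak in either flank in any list. Meis1, with 1 HSC peak inside its window, had 2 in the left and 6 in the right flank. Klf1 had 0 peaks in the left flank in all 3 lists, and 6, 4 and 3 in HSC, CMP and ERY to the right. The right counts include the peak that crosses the window edge in each list, which is also counted in the window. Gfi1b had none to the right in any list. At Bcl11a the right flank held 5 HSC peaks, 5 CMP peaks and 1 ERY peak, counts that were not matched peak by peak. The cause of these differences was not tested.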
